A study of Mus musculus with 12 samples.

Results

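The miR-30 family was followed in small RNA libraries of mouse medial prefrontal cortex. The mature miRNA rows listed as mmu-miR-30a-5p, mmu-miR-30b-5p, mmu-miR-30c-5p, mmu-miR-30d-5p, mmu-miR-30e-5p, mmu-miR-30a-3p and mmu-miR-30e-3p (the species prefix is left off from here on) were taken by name, and these 7 of the 1374 mature miRNAs were counted in every library. The 12 libraries came from C57BL/6 males in a cocaine conditioned place preference (CPP) experiment and formed 4 groups with n = 3 each. SS mice received saline only, CS mice cocaine and saline, MS mice L-methionine (MET) and saline, and MC mice MET and cocaine. MET, a methyl donor, was injected s.c. at 1 g/kg (6.6 mmol/kg) over 10 days per the sample labels, with more than 1 injection a day, and tissue was taken 2 h after the test on day 10. A figure legend of the study gives another MET dose, and which is right could not be settled from the files. Per the methods, the RNA of a pair of mice was pooled for each library, so the spread between libraries is that between pools.

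A miRNA is cut from a hairpin RNA by Drosha and then Dicer, and an arm of the hairpin is loaded into Argonaute, where it represses mRNAs that pair with its seed, bases 2 to 8. The miR-30 hairpins load mostly the 5p arm, here called the guide arm, and the 3p arm is the less abundant partner. The family is expressed in most tissues, and its members share a seed and thus many predicted targets. In mouse medial prefrontal cortex, miR-30a-5p is known as a repressor of Bdnf, which encodes brain-derived neurotrophic factor.

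The mature sequences below are shown because reads were assigned to arms that differ by few bases; the seed is in capitals. They are RefSeq entries on GRCm38.p6, found for 5 of the 7 arms, and miR-384-5p, a brain miRNA with the same seed, is added.
miR-30a-5p: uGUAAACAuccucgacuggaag
miR-30c-5p: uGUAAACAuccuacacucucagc
miR-30e-5p: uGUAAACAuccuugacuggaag
miR-30a-3p: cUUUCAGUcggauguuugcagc
miR-30e-3p: cUUUCAGUcggauguuuacagc
miR-384-5p: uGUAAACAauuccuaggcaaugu

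Counting from 1 at the 5′ end, the guide arms of miR-30a and miR-30e differ by C13U only, and their 3p arms by G18A only. miR-30c-5p is identical to miR-30a-5p over the first 12 bases and differs at 5 of the 22 bases compared. miR-384-5p is identical to miR-30a-5p over the first 8 bases and differs at 10 of 22. The seed GUAAACA was held by 4 of 1679 mature entries in the RefSeq table, namely the 3 guide arms printed and miR-384-5p. The 3p arms printed carry another seed, UUUCAGU, held by 2 entries. No entry was found for the arms of miR-30b and miR-30d, so neither seed count can include them.

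The hairpins located lie on different chromosomes (GRCm38, GENCODE M21 annotation), and those of miR-30b and miR-30d were not located here. Mir30a at chr1:23272269-23272339, plus strand, was intergenic, and Mir30c-2 at chr1:23291701-23291784 overlapped an exon of the lincRNA Gm27028, 19.4 kb downstream. Mir30c-1 at chr4:120769534-120769622 and Mir30e at chr4:120772606-120772697, both on the minus strand, lay 2.98 kb apart in introns of Nfyc, which encodes a subunit of the CCAAT-binding factor NF-Y. The mature sequence of miR-30c-5p is the same from both of its hairpins, so its count pools the loci on chromosomes 1 and 4. Mir384 at chrX:105344282-105344369, minus strand, was intergenic.

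The libraries held between 7.77 and 11.1 M counts (M, 1000000), of which 56.1% to 67.9% were miRNA. The neuronal miR-124-3p was abundant in all of them (30002 to 176336 counts per 1000000 counts, CPM). Of the muscle miRNAs, miR-1a-3p and miR-206-3p did not exceed 3.80 and 3.22 CPM, and miR-133a-3p was at 24.8 to 82.3 CPM. Counts of miRNA precursor families, taken without mir-30, sorted the libraries into 3 sets that follow the groups only in part. CS replicates 8 and 9 fell with SS replicate 12 (set A). MC replicates 16 and 17 fell with CS replicate 10 (set C), and the remaining 6 libraries, from SS, MS and MC, made up set B. No label names a batch. All 3 MS libraries are in set B, which holds no CS library, so group and set are partly confounded. MC replicate 16 stood apart by the lowest TMM (trimmed mean of M-values) scaling factor, 0.675 against 0.826 to 1.26 in the others. Values below are CPM of all counted small RNAs, and "TMM-scaled" where these factors were applied too.

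miR-30d-5p was the most abundant guide arm in each library, with 2250 ± 641 CPM (SD, n = 12), and held rank 49 among miRNAs by mean CPM. miR-30c-5p (868 ± 349 CPM) and miR-30a-5p (856 ± 292 CPM) followed at ranks 72 and 73. Their order was not fixed: the log2 ratio of miR-30a-5p to miR-30c-5p lay between -0.21 and 0.32 over the libraries. miR-30b-5p had 657 ± 253 CPM, below miR-30c-5p in each library, and miR-30e-5p, with 306 ± 129 CPM, was the lowest guide arm. The guide arms printed above are 22 or 23 bases long, and levels are given without a correction for length.

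The 3p arms were lower but well detected. miR-30a-3p had 194 ± 61.0 CPM and miR-30e-3p 111 ± 30.3 CPM (SD, n = 12), at ranks 138 and 166. The remaining rows of the family were rare: miR-30d-3p, miR-30c-2-3p, miR-30c-1-3p and miR-30b-3p had means of 21.5, 21.3, 9.53 and 6.78 CPM. miR-30f, from the strand opposite Mir30e, had 1 count in 1 MS library and none elsewhere, where the limit that a count of 0 allows is at most 0.386 CPM.

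**Figure D1:**
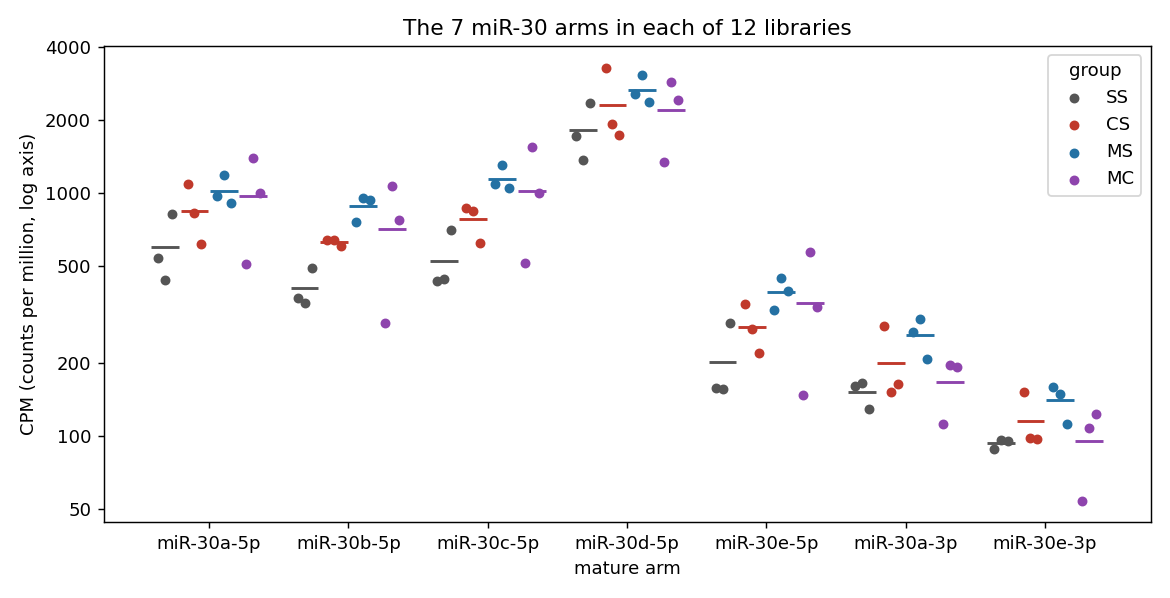
CPM (log axis) of the 7 miR-30 arms, with a point for each library and a bar at the mean of each group of 3. The MS points lie above the SS points for all 7 arms, and the lowest MC point of each arm is MC replicate 16.

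The question whether MET alone moved the family is addressed by MS against SS. Each of the 7 arms had a higher mean in MS, and in CPM the groups did not overlap for any of them. The clearest differences were in miR-30b-5p and miR-30c-5p. No arm passed the test after adjustment, and none of the 780 miRNAs tested did.

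In SS replicates 12, 13 and 14, miR-30b-5p had 369, 353 and 490 CPM. In MS replicates 3, 4 and 23 it had 759, 955 and 940 CPM. All MS libraries were above all SS libraries, also on the TMM scale (741 to 951 against 407 to 507). The edgeR log2 fold change was 0.90 ± 0.27 (SE), a fold of 1.86, with adjusted p = 0.315 (unadjusted p = 0.0073).

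For miR-30c-5p the SS libraries gave 432, 442 and 703 CPM. The MS libraries gave 1084, 1303 and 1051 CPM. These values too did not overlap, and after TMM scaling the 3 MS libraries lay within 1059 to 1096. The edgeR log2 fold change was 0.89 ± 0.26 (SE), a fold of 1.85, with adjusted p = 0.315 (unadjusted p = 0.0051).

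miR-30e-5p, the lowest guide arm, had 157, 156 and 292 CPM in SS and 329, 448 and 396 CPM in MS. Its edgeR log2 fold change was 0.73 ± 0.32 (SE; adjusted p = 0.502). miR-30a-5p, the sequence nearest to it, had 538, 438 and 816 CPM in SS against 973, 1181 and 906 CPM in MS, with an edgeR log2 fold change of 0.54 ± 0.25 (SE; adjusted p = 0.536). In both arms SS replicate 14 was the SS library nearest to MS.

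miR-30d-5p, the most abundant arm, differed least. It had 1723, 1369 and 2356 CPM in SS and 2548, 3062 and 2382 CPM in MS, so that SS replicate 14 and MS replicate 23 nearly met. Its edgeR log2 fold change was 0.32 ± 0.22 (SE; adjusted p = 0.687), and on the TMM scale the groups overlapped.

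The 3p arms were also higher in MS. miR-30a-3p was at 129 to 164 CPM in SS and 206 to 301 CPM in MS (edgeR log2 fold change 0.51 ± 0.25 SE, adjusted p = 0.551). miR-30e-3p was at 88.1 to 95.8 CPM in SS and 112 to 159 CPM in MS (edgeR log2 fold change 0.34 ± 0.23 SE, adjusted p = 0.685), and overlapped after TMM scaling. The 4 rarer arms tested had positive log2 fold changes of 0.20 to 0.46.

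Across the 780 miRNAs, 18.7% had MS wholly above SS in CPM, against 7 of the 7 arms. On the TMM scale the share was 12.8%, against 5 of the 7 arms. The share with an adjusted p at or under 0.05 was 0%, and 75 miRNAs had an unadjusted p under 0.05, 5.64% of the 780 in the higher direction, where 3 of the 7 arms stood (miR-30b-5p, miR-30c-5p and miR-30e-5p). The median log2 fold change was 0.54 for the 7 arms and -0.03 for all tested. DESeq2 called 13 miRNAs in this comparison, none of them a miR-30 arm.

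miR-30b-5p was called only where MC replicate 16 was left out on its own. This library is outside the comparison but enters the shared scaling and estimate of spread. Without it, edgeR called 7 miRNAs, among them miR-30b-5p with a log2 fold change of 0.97 and adjusted p = 0.0462. miR-30c-5p then had an adjusted p of 0.0621. The 6 libraries of MS and SS alone, which also leave out MC replicate 16, gave 3 called miRNAs, none a miR-30 arm. The reason for the difference was not tested.

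Within library set B, the 3 MS libraries against SS replicates 13 and 14 gave log2 ratios of mean TMM-scaled CPM of 0.83 for miR-30b-5p, 0.76 for miR-30c-5p and 0.28 for miR-30d-5p, with all 7 arms positive. Of the 8 marker lists summed in CPM, 5 were wholly higher in MS than in SS, where 18.7% of the 780 single miRNAs were. These sums were not scaled by TMM factors, unlike the ratios just given. The 3 red blood cell miRNAs summed to 2559 to 3972 CPM in MS against 1496 to 2221 CPM in SS. Most of this was miR-451a, with a median of 2461 CPM over all libraries, against 6.70 for miR-144-3p and 11.3 for miR-486a-5p. The 3 leukocyte and microglial miRNAs summed to 26.9 to 35.8 CPM in MS against 12.3 to 19.8 CPM in SS. The 2 endothelial miRNAs, mostly miR-126a-3p, summed to 7669 to 9877 CPM in MS against 6580 to 7375 CPM in SS. The liver miRNA miR-122-5p was at 69.4 to 2494 CPM in MS against 11.2 to 58.8 CPM in SS. The 3 muscle miRNAs, mostly miR-133a-3p, summed to 35.01 to 87.4 CPM in MS against 27.0 to 32.1 CPM in SS. The sums for neurons, oligodendrocytes and choroid plexus overlapped between MS and SS. All of these markers were counted in every library. Their part in the miR-30 values was not tested. In bulk tissue, a difference in the number of cells of a type and one in RNA per cell cannot be told apart.

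**Figure D2:**
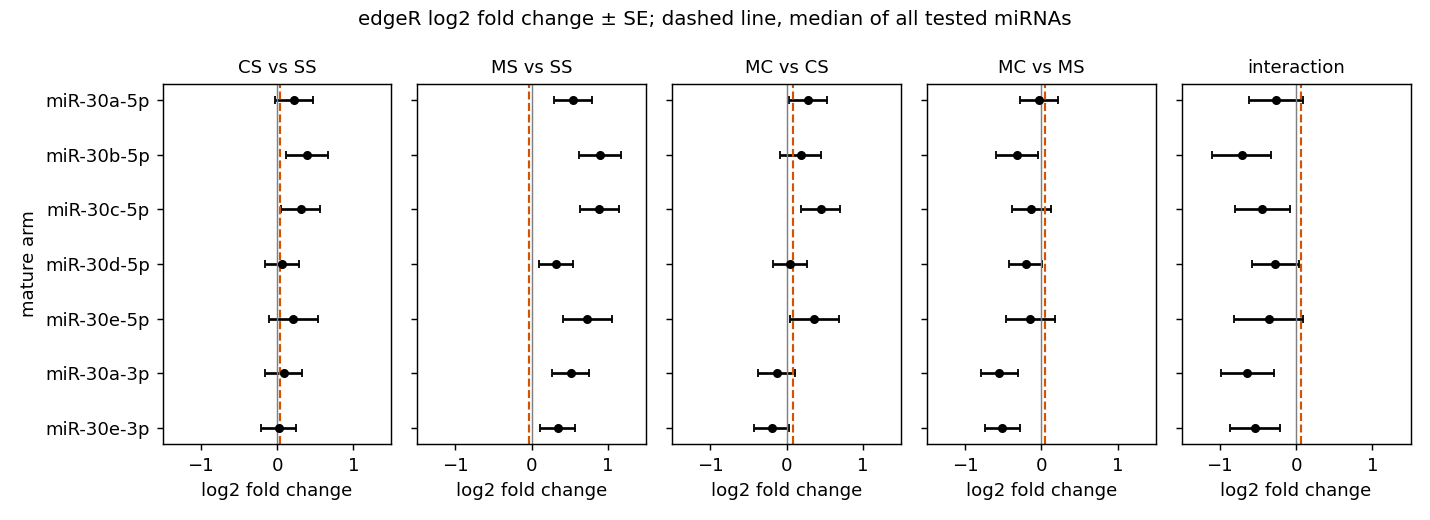
edgeR log2 fold change (point) ± SE (bar) of each miR-30 arm in 5 comparisons, with the median of all 780 miRNAs as a dashed line. All 7 arms lie to the right of that line in MS vs SS and to the left in MC vs MS and in the interaction. No arm passed the adjusted test.

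Cocaine without MET, CS against SS, gave smaller differences. miR-30b-5p had 638, 641 and 605 CPM in CS, all above its 353 to 490 CPM in SS, and miR-30e-3p, at 97.2 to 151 CPM, was also wholly above SS. These were 2 of the 7 arms, where 12.3% of all miRNAs lay wholly higher in CPM. On the TMM scale none of the 7 did, where 5% of all miRNAs did. The edgeR log2 fold changes ran from 0.02 (miR-30e-3p) to 0.40 ± 0.27 SE (miR-30b-5p), with a median of 0.21 against 0.03 for all miRNAs. The smallest adjusted p of an arm was 0.994. No miRNA was called (0% of 780; 22 had an unadjusted p under 0.05; DESeq2 called 0).

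MET on top of cocaine, MC against CS, is the contrast nearest to the study's question of how MET acts on cocaine mice. miR-30c-5p had 868, 843 and 622 CPM in CS and 516, 1552 and 1000 CPM in MC. The MC libraries thus spanned the CS range, with replicate 16 lowest and replicate 17 highest, and the same held for miR-30b-5p (292, 1071 and 776 CPM in MC). All 7 arms overlapped, where 2.95% of all miRNAs lay wholly higher and 2.05% wholly lower in CPM. The edgeR log2 fold changes were 0.05 to 0.45 for the guide arms and -0.13 and -0.20 for miR-30a-3p and miR-30e-3p. The smallest adjusted p was 0.594 (miR-30c-5p, 0.45 ± 0.25 SE), and 0% of the 780 miRNAs were called (58 had an unadjusted p under 0.05; DESeq2 called 0).

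In MC against MS, where both groups had received MET, miR-30a-3p and miR-30e-3p had the lowest log2 fold changes of the 7 arms. miR-30a-3p had 111, 195 and 192 CPM in MC replicates 16, 17 and 20, all below the 206 CPM of the lowest MS library. After TMM scaling the 3 MC values were nearly equal, 165, 166 and 164, against 208 to 262 in MS. The edgeR log2 fold change was -0.55 ± 0.25 (SE; adjusted p = 0.561, unadjusted p = 0.0464).

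miR-30e-3p had 53.9, 108 and 123 CPM in MC and 159, 148 and 112 CPM in MS, which overlap. After TMM scaling they did not, with 79.9 to 104 in MC and 113 to 156 in MS. Its edgeR log2 fold change was -0.51 ± 0.23 (SE; adjusted p = 0.561). The guide arms differed less, from -0.03 for miR-30a-5p to -0.32 for miR-30b-5p. The rarer 3p arms did not all follow. Their edgeR log2 fold changes were -0.53 for miR-30d-3p, -0.12 for miR-30b-3p, 0.098 for miR-30c-1-3p and 0.097 for miR-30c-2-3p. Wholly lower in CPM was 1 of the 7 arms, where the share of all miRNAs was 2.69%, and on the TMM scale 2 of the 7, where it was 4.23%. In the lower direction, 2 of the 7 arms, miR-30a-3p and miR-30e-3p, reached an unadjusted p under 0.05, as did 2.05% of all miRNAs. No miRNA was called (0% of 780; 65 had an unadjusted p under 0.05; DESeq2 called 0).

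The interaction, the cocaine difference with MET minus that without, was negative in all 7 arms, from -0.26 (miR-30a-5p) to -0.71 ± 0.39 SE (miR-30b-5p) in log2 units. The median was -0.44, against 0.06 for all miRNAs. The smallest adjusted p of an arm was 0.804 (edgeR), and 0% of the 780 miRNAs were called (34 had an unadjusted p under 0.05; DESeq2 called 0). Over the 4 groups jointly, miR-30c-5p had the lowest unadjusted p among the arms, 0.0188, with an edgeR adjusted p of 0.593. An unadjusted p under 0.05 was reached by 2 of the 7 arms, miR-30b-5p and miR-30c-5p, and by 7.56% of all miRNAs; DESeq2 called 13 miRNAs, none a miR-30 arm. The comparisons share groups, so their fold changes are not independent of each other.

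The family as a whole was a small share of the miRNA pool. The 5 guide arms together held 0.507%, 0.406% and 0.711% of miRNA counts in SS replicates 12, 13 and 14. They held 0.991%, 0.683% and 0.623% in CS replicates 8, 9 and 10, and 0.864%, 1.17% and 0.890% in MS replicates 3, 4 and 23. In MC replicates 16, 17 and 20 they held 0.5003%, 1.23% and 0.932%. The MS libraries were above the SS libraries, and MC overlapped both. The difference among the 4 groups did not pass an exact permutation test of the F statistic over 15400 partitions (p = 0.218, Benjamini-Hochberg adjusted over 8 such tests 0.435). With a library left out, the unadjusted permutation p ran from 0.0471 (without MC replicate 16) to 0.444.

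The make-up of the family was compared within each library. Of the guide-arm counts, miR-30d-5p held 46.3% ± 4.62 (SD, n = 12), miR-30c-5p 17.3% ± 2.26, miR-30a-5p 17.3% ± 0.95, miR-30b-5p 13.1% ± 2.12 and miR-30e-5p 6.04% ± 0.757. The 95% Wilson interval of a share in a library was at most 0.663 percentage points to either side, which covers counting error only.

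Among these shares, that of miR-30c-5p gave the lowest p. It was 13.4%, 16.0% and 15.1% in SS and 13.9%, 18.7% and 16.4% in CS. With MET it was 19.0%, 18.7% and 18.5% in MS and 18.4%, 20.8% and 18.1% in MC. All 6 MET libraries were above the 3 SS libraries, and CS overlapped both. The exact permutation p was 0.0435, and 0.273 after adjustment over the 8 tests.

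The 5 shares add up to the whole in each library, so they are not independent of each other. miR-30d-5p held a lower share in both MET groups than in SS, although its CPM was higher in MS than in SS. It held 53.5%, 49.6% and 50.6% in SS, and 44.8%, 44.1% and 42.0% in MS. In MC it held 47.8%, 38.5% and 43.7%, also below SS, while CS, with 52.8%, 42.6% and 45.7%, overlapped SS. The exact permutation p was 0.102 (adjusted 0.273). With a library left out, the unadjusted permutation p ran from 0.0408 (without CS replicate 8) to 0.263. The shares of miR-30a-5p (p = 0.101), miR-30b-5p (p = 0.434) and miR-30e-5p (p = 0.552) did not pass this exact test either. For miR-30a-5p the unadjusted permutation p ran from 0.0441 (without CS replicate 10) to 0.251 with a library left out.

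**Figure D3:**
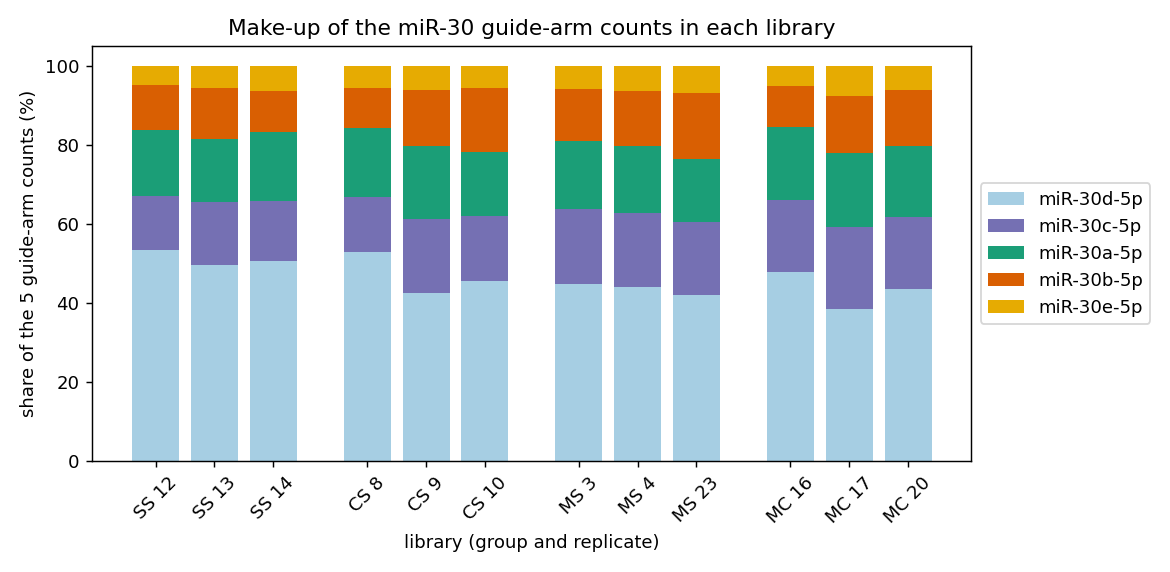
Share of the 5 miR-30 guide-arm counts (%) held by each guide arm, in a stacked bar for each library. miR-30d-5p takes 49.6% to 53.5% in SS and 42.0% to 44.8% in MS, and miR-30c-5p 13.4% to 16.0% in SS and 18.5% to 19.0% in MS.

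The arms of a hairpin can be compared within a library. The miR-30a guide arm exceeded its 3p arm by 2.67-fold to 7.16-fold, with a mean ratio of 4.53 ± 1.30 (SD, n = 12). For miR-30e the ratio was 1.63 to 5.32, with a mean of 2.77 ± 0.977. By group, the miR-30a ratio averaged 4.12 ± 1.95 for SS and 4.37 ± 0.961 for CS, against 3.98 ± 0.392 for MS and 5.64 ± 1.35 for MC (SD, n = 3). The highest ratios of both hairpins were in MC replicate 17, and SS replicate 14 was the highest of its group in both. For miR-30a every MC library (4.58 to 7.16) was above every MS library (3.62 to 4.399), and SS and CS overlapped both. Neither ratio passed the exact permutation test among groups (miR-30a p = 0.423, miR-30e p = 0.292). With a library left out, the unadjusted permutation p of the miR-30a ratio ran from 0.0356 (without SS replicate 14) to 0.78. That of miR-30e stayed above 0.05 whichever library was left out.

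**Figure D4:**
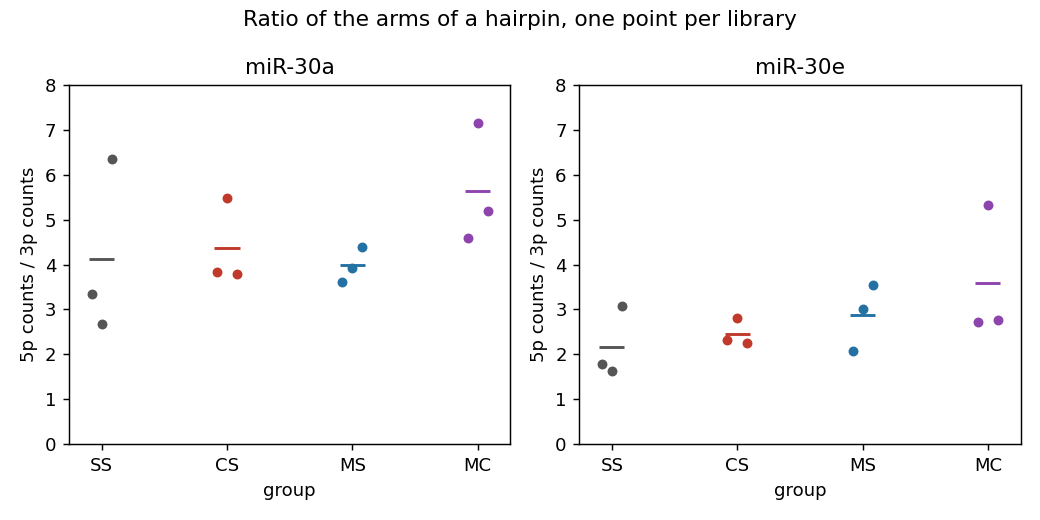
Ratio of 5p to 3p counts of the miR-30a and miR-30e hairpins, with a point for each library and a bar at the mean of each group of 3. For miR-30a the MC points (4.58 to 7.16) lie above the MS points (3.62 to 4.399) and the other pairs of groups overlap. For miR-30e all groups overlap.

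Some arms kept a tighter proportion than others over the 12 libraries, measured as the SD of the log2 ratio of a pair. This SD was 0.16 for miR-30c-5p with miR-30e-5p, 0.17 for miR-30a-3p with miR-30e-3p and 0.18 for miR-30a-5p with miR-30e-5p. Arms of the same hairpin were looser, with 0.40 for miR-30a and 0.46 for miR-30e. The 3p pair that is nearest in sequence was thus tighter than either 3p arm with its own 5p partner. Because the miR-30a and miR-30e arms differ at 1 base, reads with an error at that base may be assigned to the other arm, and these ratios are uncertain to that extent.

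Outside the family, 175 miRNAs with at least 100 CPM on average, the arms included, were ordered by the SD of their log2 ratio to the guide-arm sum. The most alike that were no members were miR-140-5p (0.22), miR-22-3p (0.25), miR-425-5p (0.28), miR-23b-3p (0.29) and miR-126a-5p (0.29). The median over the 175 was 0.52. The guide arms, themselves part of the sum, ran from 0.08 (miR-30a-5p) to 0.24 (miR-30b-5p). The listed 3p arms were looser than these outside miRNAs, with 0.32 for miR-30e-3p and 0.35 for miR-30a-3p. The endothelial miR-126a-5p was at 252 to 373 CPM in SS and 564 to 790 CPM in MS (edgeR log2 fold change 0.81 ± 0.29 SE, adjusted p = 0.397). In the same comparison the edgeR log2 fold change was 0.50 for miR-140-5p, 0.31 for miR-22-3p, 0.18 for miR-425-5p and 0.07 for miR-23b-3p, none of them called. The libraries share depth and composition in all of these ratios, so they are a description.

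miR-384-5p, which has the miR-30 seed and is linked to synaptic plasticity, had its lowest group mean in MS, where the guide arms had their highest. It had 1282, 1359 and 750 CPM in SS and 863, 149 and 367 CPM in MS. It had 1849, 1391 and 1161 CPM in CS and 152, 1199 and 583 CPM in MC. The groups SS and MS overlapped through SS replicate 14 and MS replicate 3, and the edgeR log2 fold change was -1.52 ± 0.64 (SE; adjusted p = 0.494). It was -2.36 without MS replicate 3 and -1.07 without MS replicate 4, and was not called in either case. MS replicate 4, with 1303 CPM of miR-30c-5p, held the least miR-384-5p. Other libraries did not show such a contrast. MC replicate 16 held 152 CPM of miR-384-5p with 516 CPM of miR-30c-5p, and MC replicate 17 held 1199 with 1552 CPM. The partner arm miR-384-3p, at 556 to 605 CPM in MS and 410 to 633 CPM in SS, gave an edgeR log2 fold change of -0.17 ± 0.48 SE (adjusted p = 0.952).

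**Figure D5:**
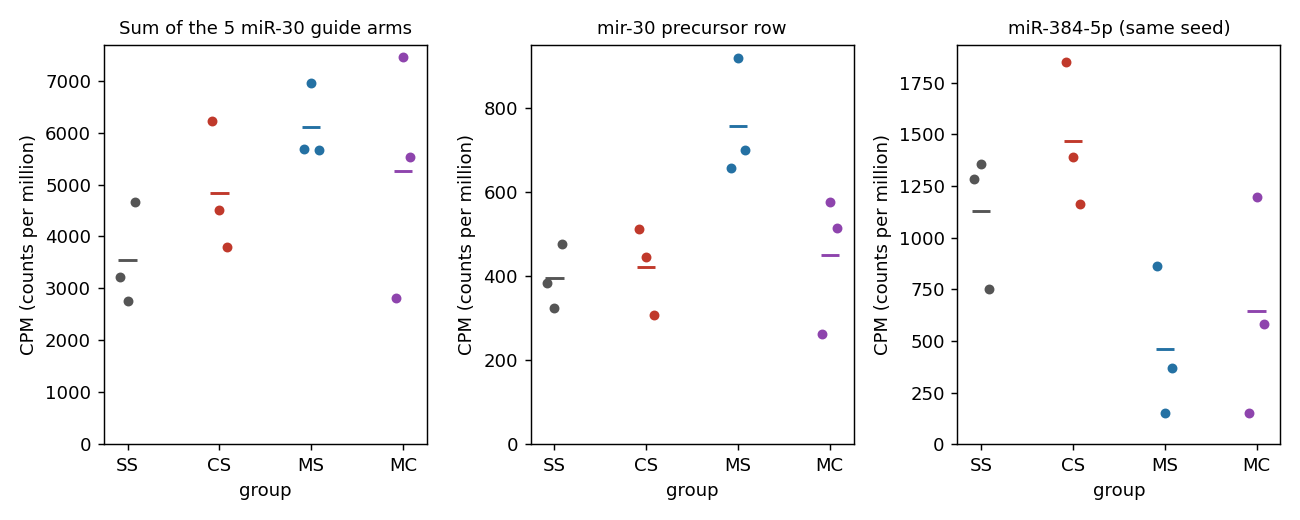
CPM of the sum of the 5 guide arms, of the mir-30 precursor family row and of miR-384-5p, with a point for each library and a bar at the mean of each group of 3. In MS the guide-arm sum (5674 to 6949 CPM) and the precursor row (656 to 918 CPM) are above all SS libraries, while miR-384-5p has its lowest group mean there, 460 ± 366 CPM (SD, n = 3).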

How the data were processed

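Small RNA of 18 to 30 nt was sequenced as 50 bp single-end reads on the BGISEQ-500 after poly-A addition, from medial prefrontal cortex, n = 3 libraries in each of 4 groups. Per the methods, reads under 16 nt were removed and the rest assigned with AASRA; the submitters' processing notes name Bowtie and mm10. The deposited files hold raw counts per small RNA and the authors' TPM, which equals count divided by the library total per 1000000 (largest deviation 0.005), here called CPM. No pair of libraries was a duplicate within sampling noise (66 pairs).

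The members and lists were chosen with earlier results of these data known. Named were the 7 arms, the other mir-30 arms, miR-384-5p by its seed, and the 5 miRNAs of at least 100 CPM most alike to the guide-arm sum. The 1422 mature and predicted miRNAs were kept where 3 or more libraries had 5 or more counts (780), scaled by TMM factors and fitted with edgeR 4.0.16 quasi-likelihood over all 12 libraries, with Benjamini-Hochberg adjustment and a call at an adjusted p of at most 0.05. DESeq2 1.42.0 was an alternative, with other scalings, filters, a library set term and left-out libraries. Shares and arm ratios were tested by exact permutation. Scripts were tested on simulated data (R 4.3.3, Python 3.11.15). Sets of libraries were found from 99 precursor families of at least 1 CPM on average, as log2 of CPM plus 0.5 centred by family (median r 0.74 within and -0.67 between sets), and are not labelled batches.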

Additional observations from a re-analysis of the deposited data

Results flagged for a closer look

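The row of the mir-30 precursor family counts reads assigned to the hairpins and entered none of the comparisons above. Only RNA of 18 to 30 nt was sequenced, and the mir-30 hairpins located are 71 to 92 bases long. The row thus counts short fragments and not whole hairpins. It had 758 ± 140 CPM (SD, n = 3) in MS against 396 ± 76.8 CPM in SS. It stood out as a signal outside the mature miRNA rows that was above the saline controls. The values were 385, 325 and 478 CPM in SS, 512, 445 and 307 CPM in CS, 656, 918 and 700 CPM in MS and 262, 576 and 516 CPM in MC. All 3 MS libraries were above all 9 other libraries, also after TMM scaling (641 to 772 against at most 494). Of the 100 precursor families with at least 1 CPM on average, 14% had MS above every SS library and 4% had MS above every other library. The difference was not tested, and all 3 MS libraries belong to library set B, whose SS replicates 13 and 14 gave 325 and 478 CPM.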

How the results depend on the processing

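No paired analysis was possible because the groups share no replicate numbers. No miR-30 arm was called in any comparison under other scalings, other filters, DESeq2 or a library set term. The 6 libraries of a comparison alone gave no called arm either. A limit of 1 on the log2 fold change was also set, but it could only remove calls and there were none to remove. Leaving out a library gave 0 to 1 arms called in MS vs SS (1 without MC replicate 16) and 0 in the other comparisons. All miRNAs called in MS vs SS numbered 0 with edgeR, 13 with DESeq2, 3 from the 6 libraries alone and 7 without MC replicate 16; over the 4 groups jointly 0, 13 with DESeq2 and 3 without MC replicate 16. The cause was not tested. In MS vs SS and in the interaction each arm kept its sign under every alternative.

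Signs turned in 20 of the alternatives tried for the other comparisons, all near 0. miR-30a-5p in MC vs MS was 0.017 with DESeq2 and 0.0012 with the library set term, and miR-30d-5p in MC vs CS was -0.066 without TMM factors. With a library left out, MC vs MS ran from -0.25 to 0.091 for miR-30a-5p, from -0.41 to 0.016 for miR-30c-5p and from -0.54 to 0.081 for miR-30e-5p. MC vs CS ran from -0.11 to 0.44 for miR-30b-5p, from -0.054 to 0.23 for miR-30d-5p, from -0.026 to 0.62 for miR-30e-5p and from -0.26 to 0.057 for miR-30a-3p. CS vs SS ran from -0.12 to 0.19 for miR-30d-5p, from -0.097 to 0.20 for miR-30a-3p and from -0.074 to 0.080 for miR-30e-3p.

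Without TMM factors the median of all miRNAs in MS vs SS moved from -0.03 to 0.21 and that of the 7 arms from 0.54 to 0.78, all 7 above the median of all. In CS vs SS the median of all miRNAs moved from 0.03 to 0.31. The 8 permutation tests of shares and ratios stayed above an adjusted p of 0.05 throughout; the unadjusted exact permutation p of the miR-30c-5p share ran from 0.0120 (without CS replicate 9) to 0.0927 with a library left out. For the miR-30a ratio this unadjusted p ran from 0.0356 (without SS replicate 14) to 0.78. The miR-30d-5p share gave 0.0408 (without CS replicate 8) to 0.263. The miR-30a-5p share gave 0.0441 (without CS replicate 10) to 0.251. The share of the family gave 0.0471 (without MC replicate 16) to 0.444, each unadjusted. The miR-384-5p log2 fold change in MS vs SS ran from -2.36 to -1.07 with a library left out. Each group had n = 3 libraries of pooled animals.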
